A study of Naumovozyma castellii with 6 samples.

Results

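The regions described here are the open reading frames (ORFs) of Xrn1-sensitive unstable transcripts (XUTs) that lie near the ends of the chromosomes of the budding yeast Naumovozyma castellii. An XUT was taken when its lowest ORF start was at most 50000 nt into the chromosome, or when its highest ORF end lay within 50000 nt of the largest ORF end listed for that chromosome. This rule uses position alone and kept 123 of 1002 XUTs, with 1329 of 8742 ORFs, at the 20 ends of 10 chromosomes. The remaining 879 XUTs, with 7413 ORFs, are the comparison set. The right end of a chromosome is thus the last listed ORF and not the end of the assembled sequence, and the last XUT there has a distance of 0 by construction. On chromosome 1 the last gene of the assembly ASM23734v1 lies more than 50000 nt beyond the last XUT, so the 4 XUTs of that end are close to the end of the table rather than to a chromosome tip.

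XUTs are cytoplasmic long noncoding RNAs that pile up when the 5′-to-3′ exonuclease Xrn1 is missing. Many carry short ORFs that ribosomes can enter, and nonsense-mediated decay, in which the helicase Upf1 acts, is one route by which such RNAs are destroyed. The stretches next to telomeres hold few housekeeping genes in budding yeasts, more members of gene families and, in many species, silent copies of mating-type genes.

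The series measured ribosome footprints, the RNA pieces that ribosomes shield from nuclease, in 6 libraries. Of these, 3 came from a wild-type strain with the genotype MATalpha ura3-1 ho, and 3 from a strain that also carries upf1::kanMX6, in which a drug-resistance cassette replaces UPF1. Both strains are haploid alpha cells without a working HO gene, were grown in rich medium at 25 °C, and received cycloheximide, an inhibitor of elongation, for 15 min. The deposited table is merged and gives 1 value per ORF, so nothing in it can be assigned to a strain or a library, replicate error cannot be given, and library depths are unknown. All shares below count XUTs unless ORFs are named. Their exact (Clopper-Pearson) 95% intervals, and the order-statistic 95% intervals of medians, cover the drawing of XUTs and not the spread between libraries. Where ORFs are counted, the interval takes each ORF as a separate draw. ORFs of an XUT can share reads, so such an interval is too narrow. No test over samples was possible, so the XUTs near chromosome ends are set beside the others as a description.

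ORFs called translating by the authors, from footprints with a 3-nt step, were listed at each of the 20 chromosome ends. An ORF can be called when at least 5 of its codons are valid and its phase score is high enough. That score measures, from 0 to 1, how regularly the footprints on the ORF repeat in steps of 3 nt. Whether it reflects the ORF's own reading frame, where ORFs overlap, was not analysed here. The lowest score of a called ORF in the table was 0.323. Near the ends 96 of the 1329 ORFs were called (7.22%, exact 95% interval 5.89 to 8.75%), where 6.6% of all listed ORFs were called. That interval takes ORFs as separate draws, although 22 of the 96 calls lay in XUT0915, so it is too narrow. The 96 calls lay in 40 of the 123 XUTs (32.5%, exact 95% interval 24.4 to 41.6%). Among all 1002 XUTs the share with a called ORF was 27%, and among the 879 others 231 had one (26.3%, exact 95% interval 23.4 to 29.3%). The intervals of the 2 sets overlap.

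**Figure D1:**
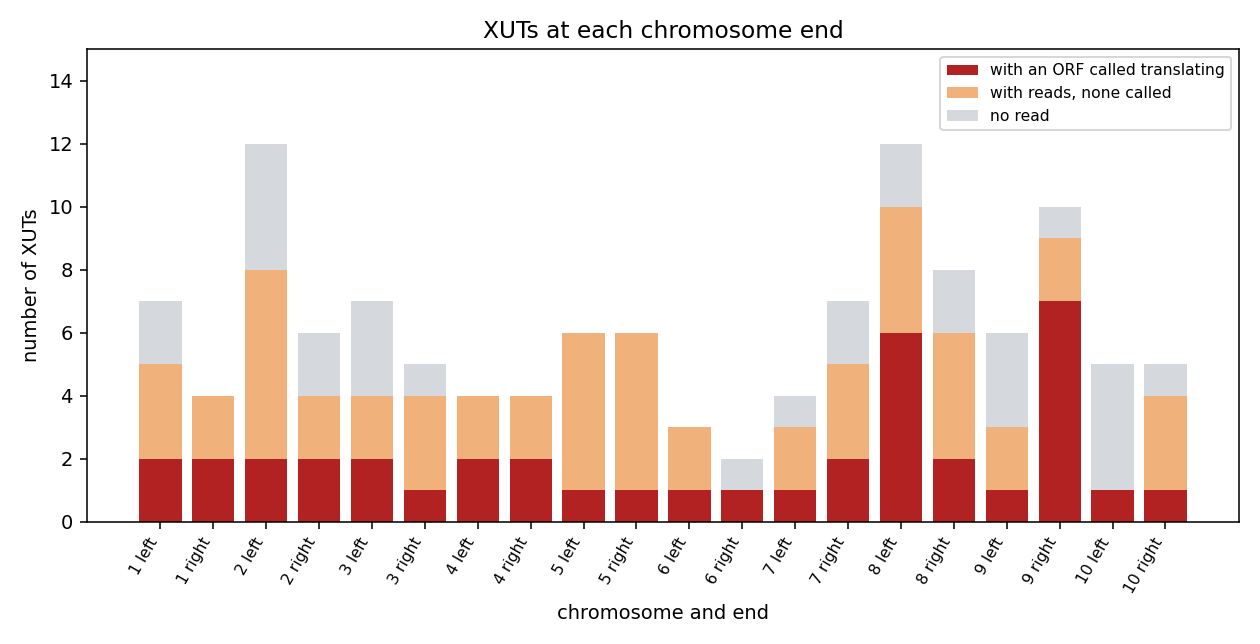
Number of XUTs (vertical axis) at each of the 20 chromosome ends (horizontal axis), split into XUTs with a called ORF, XUTs with reads but no call, and XUTs without a read. Each end holds between 1 and 7 XUTs with a call, and the right end of chromosome 9 holds the 7.

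The ends differed in how much they held. An end had between 2 and 12 XUTs, with a median of 6, and between 39 and 4978 reads, with a median of 473.5. The right end of chromosome 8 had the most reads, 4978, of which 98.9% came from XUT0915. The left end of chromosome 9 had the fewest, 39. In 9 of the 20 ends a single XUT had a called ORF and in another 9 there were 2. The left end of chromosome 8 had 6 and the right end of chromosome 9 had 7. Those 7 XUTs, of 10 at that end, held 14 called ORFs and are not dominated by 1 transcript, since the most-read of them, XUT0963, had 40.3% of the reads of the end.

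The end zones held more XUTs per length than the rest of the chromosomes. The 20 end zones held a mean of 6.15 XUTs each, and 196 interior windows of the same width, tiled from the left zone inward, held a mean of 4.32. At least 1 called XUT was present in 130 of those 196 windows (66.3%), and in all 20 end zones. Interior windows held between 0 and 14 XUTs and end zones between 2 and 12, and a window without an XUT cannot hold a call. The mean number of called XUTs was 2 per end zone and 1.12 per interior window. The median number of reads was 473.5 per end zone (interquartile range 76.8 to 1048) and 72.5 per interior window (23.5 to 263). The interquartile ranges overlap, but each median lies outside the range of the other set, and the difference was not tested. Summed over all XUTs, the end zones held 8.13% of the reads with 12.3% of the XUTs. Each right end zone is anchored on an XUT, which an interior window is not.

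The typical XUT near an end was covered about as sparsely as one elsewhere. Reads were present in 94 of the 123 XUTs (76.4%, exact 95% interval 67.9 to 83.6%) and in 660 of the 879 others (75.1%, 72.1 to 77.9%). The median XUT had 6 reads summed over its ORFs in both sets, with intervals of 4 to 12 near the ends and 5 to 7 elsewhere. Reads of overlapping ORFs enter such sums more than once. The sets differed more at the upper end, where 20 of 123 XUTs had at least 100 reads (16.3%, exact 95% interval 10.2 to 24.0%), compared with 84 of 879 (9.56%, 7.69 to 11.7%). Among XUTs with any read the median was 21 reads near the ends (interval 8 to 35) and 11 elsewhere (10 to 14).

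The XUTs near the ends also offered somewhat more to score. They held a median of 8 ORFs (interval 7 to 10) over a median span of 688 nt (576 to 810), and the others 7 ORFs (6 to 7) over 509 nt (463 to 546). The longest ORF of an XUT had a median of 147 nt (123 to 168) near the ends and 138 nt (132 to 144) elsewhere. At least 20 ORFs were listed for 16 of the 123 XUTs (13.0%, exact 95% interval 7.62 to 20.3%) and for 64 of the 879 others (7.28%, 5.65 to 9.20%). Single ORFs were not longer, with a median of 42 nt near the ends and 48 nt elsewhere. Long ORFs were rare in both sets. An ORF of 600 nt or more was listed for 2 of the 123 XUTs (1.63%, exact 95% interval 0.198 to 5.75%) and for 28 of the others (3.19%, 2.13 to 4.57%). The first interval is wide and contains the second.

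Shares of XUTs with a call were therefore also set side by side among XUTs with similar numbers of ORFs. With 1 to 4 ORFs, 4 of 30 XUTs near the ends had a call (13.3%) and 40 of 292 others (13.7%). With 5 to 9 ORFs it was 12 of 42 (28.6%) and 70 of 316 (22.2%). With 10 to 19 ORFs the order was turned, at 12 of 35 (34.3%) and 92 of 207 (44.4%). With 20 or more ORFs, 12 of 16 XUTs near the ends had a call (75%, exact 95% interval 47.6 to 92.7%), and 29 of 64 others did (45.3%, 32.8 to 58.3%). The difference between the sets thus changed direction between classes of ORF number, and the class of 20 or more ORFs rests on 16 XUTs.

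Within the end zones, the outermost 10000 nt held 49 of the 123 XUTs. At right ends this distance runs from the last listed ORF, so each right end has an XUT in this stretch by construction. On the right of chromosome 1 the stretch does not lie at a chromosome tip. Of these 49, 19 had a called ORF (38.8%, exact 95% interval 25.2 to 53.8%), and their median was 25 reads (interval 5 to 37). The 74 XUTs further in had 21 with a call (28.4%, exact 95% interval 18.5 to 40.1%) and a median of 4 reads (2 to 8). The outer XUTs also listed more ORFs, with a median of 10 against 8. Among XUTs with at least 10 ORFs, the share with a call was 13 of 25 in the outer stretch (52%) and 11 of 26 further in (42.3%), and the median was 48 reads (interval 28 to 70) and 16.5 reads (5 to 133). Among those with fewer ORFs it was 6 of 24 (25%) and 10 of 48 (20.8%). The values did not fall steadily inward. From 10001 to 20000 nt, 6 of 20 XUTs had a call (30%) and the median was 4.5 reads. It was 5 of 15 (33.3%) and 6 reads from 20001 to 30000 nt, 5 of 14 (35.7%) and 6.5 reads from 30001 to 40000 nt, and 5 of 25 (20%) and 2 reads from 40001 to 50000 nt. The bins of 15 and 14 XUTs are too small to be placed in an order. No test of these shares was possible, and their intervals overlap.

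**Figure D2:**
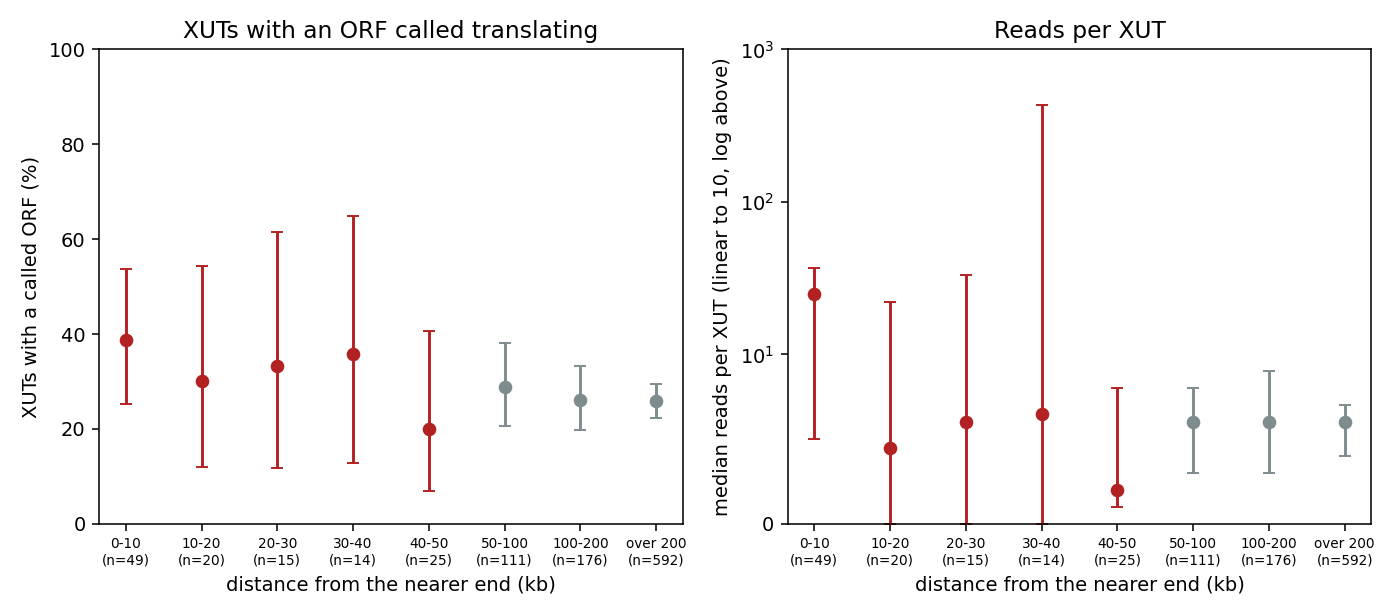
Share of XUTs with a called ORF (left, percent, exact 95% intervals) and median reads per XUT (right, linear up to 10 and logarithmic above, order-statistic 95% intervals) by distance from the nearer end in kb, with the number of XUTs under each bin. Red bins lie in the end zones and grey bins further in; the outermost bin has the highest share, 38.8%, and the highest median, 25 reads, and its share has an interval that overlaps those of all other bins.

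Reads near the ends were concentrated in a few XUTs. The 1329 ORFs summed to 17268 reads, which is 8.13% of the reads of the table for 15.2% of its ORFs. XUT0915 and XUT0252 together held 7439 of them (43.1%), and the 10 XUTs with most reads held 13850 (80.2%). Elsewhere reads were also unevenly spread, with 37230 of 195242 on the most-read XUT. No read fell on 29 of the 123 XUTs, 40 had 1 to 9 reads, 34 had 10 to 99 and 20 had 100 or more.

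**Figure D3:**
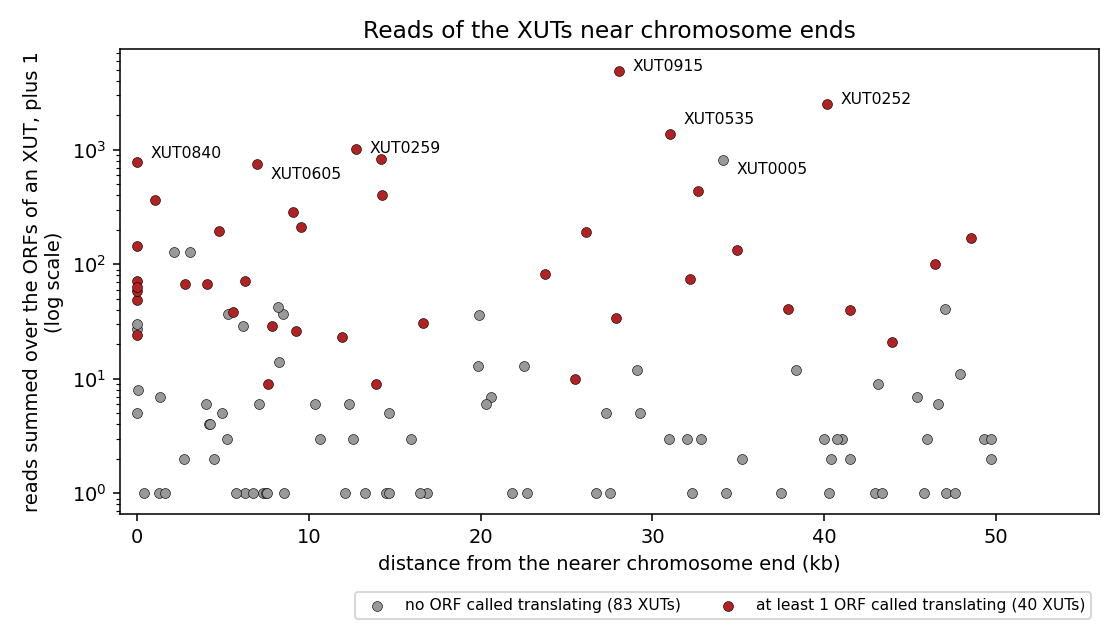
Reads summed over the ORFs of each XUT, plus 1, on a log axis (vertical) against the distance from the nearer chromosome end in kb (horizontal), 1 point per XUT, red where at least 1 ORF was called. XUT0915 with 4921 reads and XUT0252 with 2518 stand highest, and 17 of the 20 XUTs with at least 100 reads are red. The distance of XUT0252 runs from the last listed ORF of chromosome 1, which is not close to a chromosome tip.

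The 2 most-read XUTs were also the only ones of the 123 with an ORF of 600 nt or more. XUT0915 lies on the plus strand of chromosome 8, with ORFs from 667670 to 671087 in the table's coordinates, for which the sources used here name no genome build. Its 3393-nt ORF (667670 to 671062) had 3286 reads, 497 valid codons of 1131 and 2.91 reads per codon, and its phase score was 0.530. A total of 22 of its 38 ORFs were called, and they form 1 group of overlapping ORFs. In 20 of these cases the called ORF lies wholly inside the long one, in another reading frame. Their scores ran up to 0.993, in a 24-nt ORF (668152 to 668175) with 100 reads and 6 valid codons. Reads in shared stretches are counted for each ORF, so these 22 calls are not independent. By position in the assembly's gene table, XUT0915 lies between NCAS0H03510 and MAK11, whose Saccharomyces cerevisiae counterpart acts in the making of the large ribosomal subunit.

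XUT0252 on the minus strand of chromosome 1 had 2518 reads over 9 ORFs, 5 of them called. Its 1542-nt ORF (2925276 to 2926817) had 2067 reads, 267 valid codons of 514, 4.02 reads per codon and a score of 0.543. A 36-nt ORF (2926790 to 2926825), which starts upstream and overlaps the beginning of the long ORF, had 179 reads, 14.9 reads per codon, 8 valid codons and a score of 0.530. The XUT lies between NCAS0A14820 and MCM16, named for a kinetochore protein in S. cerevisiae. Both long ORFs, and the ORFs of XUT0259 and XUT0421 below, lie between genes whose locus tags skip a number. Of the 123 XUTs 5 do so (4.07%), 4 of them with a call, and the fifth, XUT0914, had no read. Elsewhere 44 of 879 do (5.01%), 36 of them with a call. Without XUT0915 and XUT0252, 69 called ORFs remained near the ends.

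**Figure D4:**
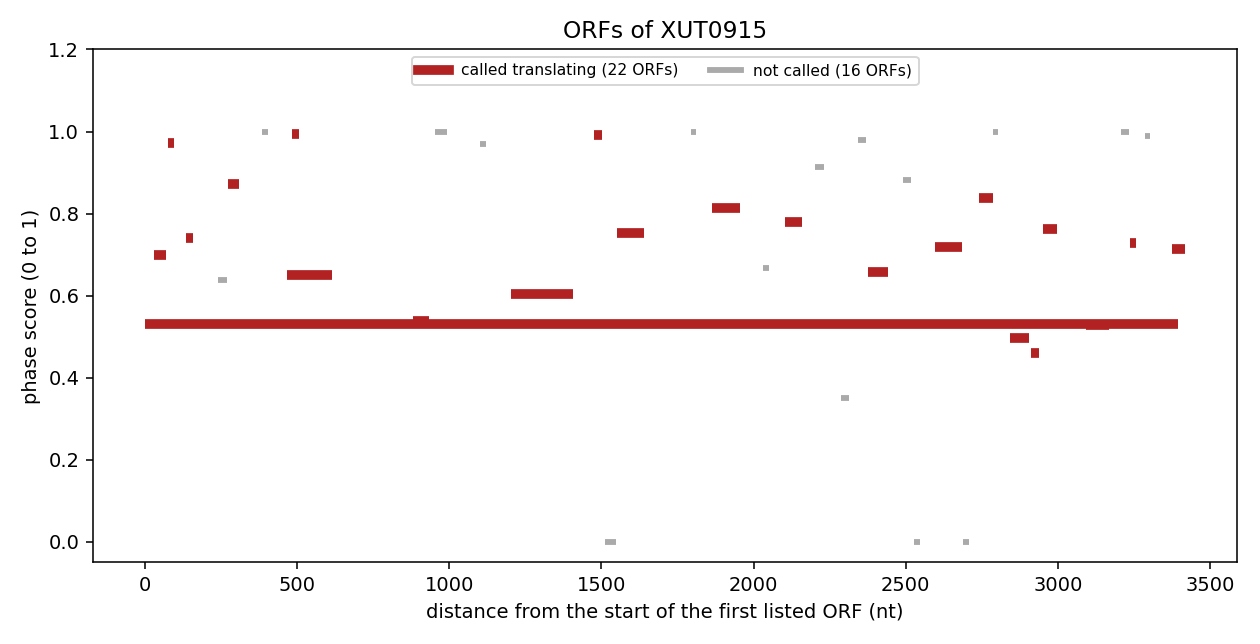
The 38 ORFs of XUT0915 as bars from start to end, in nt from the start of the first listed ORF (horizontal), at the height of their phase score (vertical, 0 to 1), red where called. The 3393-nt ORF at 0.530 spans nearly the whole XUT, and 20 of the other called ORFs lie inside it.

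Mid-sized called ORFs came next. XUT0259, on the minus strand of chromosome 2, lists only 3 ORFs, and the first of them, 204 nt long (12826 to 13029), took 995 of its 1009 reads (98.6%), with 45 valid codons among 68 and a score of 0.714. It lies between NCAS0B00160 and MSC1. XUT0421, on the other arm of chromosome 2, has a 501-nt ORF (1741161 to 1741661) with 632 of the 838 reads, 88 valid codons and a score of 0.591, and 3 of its 4 other called ORFs lie inside it. It neighbours PRD1, the gene of a metalloendopeptidase in S. cerevisiae. XUT0840 is the last XUT listed on chromosome 7 and lies between HRB1, which encodes an RNA-binding protein in S. cerevisiae, and PET8, which encodes a mitochondrial carrier there. Its first ORF of 111 nt had 382 reads and a score of 0.352, close to the lowest that was called. Its 261-nt ORF (797918 to 798178) had fewer reads, 240, but 47 valid codons and a score of 0.629.

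In several XUTs most footprints sat on a short first ORF, with 73.5% to 96.4% of the reads in the 5 XUTs given here. XUT0605, which starts 6962 nt into chromosome 5 on the plus strand, lists 36 ORFs over its length, and the first, of 51 nt (6962 to 7012), had 677 of its 755 reads (89.7%). That ORF had 15 of 17 codons valid, a score of 0.713 and 39.8 reads per codon, the highest density of any called ORF near an end. In XUT0603, at the right end of chromosome 4, the first ORF, also of 51 nt (946879 to 946929), took 347 of 360 reads (96.4%) with 10 valid codons and a score of 0.658. XUT0842, the XUT with most ORFs, 70, has its only call in the first, a 33-nt ORF (4778 to 4810, chromosome 8) with 154 of 196 reads. XUT0852 has its call in a first ORF of 45 nt (125 of 170 reads, score 0.785), and XUT0965 has 1 of its 2 calls in a first ORF of 105 nt (568235 to 568339, chromosome 9, minus strand). The latter took 177 of 189 reads, and its score of 0.863 with 18 valid codons was the highest near an end among called ORFs with at least 10 valid codons. The other called ORF of XUT0965, 294 nt long, had 8 reads and a score of 0.485.

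First position and reads went together in both sets. In XUTs with at least 2 ORFs, the first ORF was called in 22 of 119 cases near the ends (18.5%, exact 95% interval 12.0 to 26.6%), and later ORFs in 74 of 1206 (6.14%, 4.85 to 7.64%). Elsewhere the first was called in 107 of 835 (12.8%, 10.6 to 15.3%) and later ones in 370 of 6534 (5.66%, 5.11 to 6.25%). Among XUTs with at least 10 reads, the first ORF was the most-read one in 23 of 54 near the ends (42.6%, 29.2 to 56.8%) and in 146 of 352 elsewhere (41.5%, 36.3 to 46.8%). The most-read ORF held a median of 56.9% of an XUT's reads near the ends (interval 48 to 72.7%) and 60% elsewhere (56.5 to 63.6%). These shares, which count ORFs of any length, have overlapping intervals in the 2 sets. The intervals for later ORFs take each ORF as a separate draw and are too narrow.

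Several of these transcripts run through or beside genes with known roles. The gene table gives no strand, so whether an XUT is antisense to a gene was not analysed here. XUT0535 on chromosome 4 overlaps HO, the endonuclease gene of mating-type switching, which the labels list as mutant in both strains. It had 1387 reads and 4 called ORFs. The ORF of these that touches HO, 150 nt long, had 5 reads and a score of 0.400. The reads lay beyond the gene, on 3 overlapping ORFs of 87, 54 and 51 nt between 32499 and 32642. They had 332, 671 and 336 reads, with scores of 0.646, 0.534 and 0.345. Reads in shared stretches are counted for each of these ORFs, so the 1387 reads can hold the same footprints more than once. The 54-nt ORF had 37.3 reads per codon, with 17 of 18 codons valid, the largest valid share among called ORFs near the ends (94.4%). XUT0535 lies between SSB1, which encodes a ribosome-associated chaperone in S. cerevisiae, and GCS1.

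The right end of chromosome 2 carries the silent mating-type genes HMLALPHA2 and HMLALPHA1. XUT0424, the last XUT of that end, overlaps HMLALPHA1 and has 1 called ORF of 108 nt (1755762 to 1755869, minus strand) with 140 of its 144 reads, 24 valid codons among 36 and a score of 0.637. In alpha cells of yeasts with silent cassettes, the expressed mating-type locus carries a copy of the HML genes. Whether this ORF lies in such a shared stretch was not analysed here, and the sources used here do not say how reads that map to several places were counted, so its reads are uncertain. XUT0422, between CHA1 and HMLALPHA2, had 127 reads, of which 123 lay on a 63-nt first ORF with 9 valid codons and a score of 0.236 that was not called.

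The right end of chromosome 4 holds genes named DAL4 and DAL2, which serve the uptake and breakdown of allantoin as a nitrogen source in S. cerevisiae. XUT0603 overlaps DAL4 and XUT0604 overlaps DAL2. The strongly covered 51-nt first ORF of XUT0603 lies outside the gene. Its second called ORF, with 10 reads and a score of 0.721, overlaps it. XUT0604 had 48 reads and a called ORF of 111 nt with 16 reads that overlaps DAL2. XUT0851 on chromosome 8 overlaps RIF2, which encodes a telomere-binding protein in S. cerevisiae. It had 39 reads and a 99-nt called ORF over the gene with 10 reads and a score of 0.342.

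Over all 96 called ORFs near the ends, 15 overlapped a listed gene and 81 (84.4%) did not, and elsewhere 398 of 481 called ORFs did not (82.7%). The 81 include all called ORFs of XUT0915, XUT0252, XUT0259 and XUT0421, which lie between genes whose locus tags skip a number. Whether the gene list lacks an entry there was not analysed here. Of all ORFs, called or not, 63.5% near the ends and 54.0% elsewhere were clear of listed genes. XUTs without gene overlap had a call in 22 of 59 cases near the ends (37.3%, exact 95% interval 25.0 to 50.9%) and in 136 of 363 elsewhere (37.5%, 32.5 to 42.7%). XUTs that overlap a gene had one in 18 of 64 (28.1%, 17.6 to 40.8%) and 95 of 516 (18.4%, 15.2 to 22.0%). XUTs clear of genes were thus called at nearly the same rate in both sets. Gene overlap was listed for 52.0% of the XUTs near the ends (exact 95% interval 42.8 to 61.1%) and 58.7% of the others (55.4 to 62.0%).

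At the other ends, as set by the position rule, the called XUT nearest to the end had between 8 and 400 reads. On chromosome 1 it was XUT0001 on the left (22 reads, 1 call) and, on the right, where the end of the table is not a chromosome tip, XUT0253. The latter overlaps SRB4 and PRO3 and had 400 reads and 3 calls, 2 of them over SRB4 with 152 and 177 reads and scores of 0.359 and 0.741. On chromosome 3 it was XUT0429 on the left, 34907 nt from the end, with 133 reads, and XUT0531 on the right, with 71 reads and 2 calls. XUT0534 on the left of chromosome 4 had 37 reads and 2 calls. XUT0685, next to ZUO1 on the right of chromosome 5, had a called ORF of 456 nt with 33 reads, 19 valid codons and a score of 0.676. On chromosome 6 it was XUT0687 (8 reads, 1 call) and XUT0756 (62 reads, 2 calls). XUT0758 on the left of chromosome 7, next to the formin gene BNR1, had 70 reads and 1 call. On chromosome 9 it was XUT0924 (33 reads, 2 calls) and XUT0971 (23 reads, 1 call). On chromosome 10 it was XUT0972, the only XUT with reads at the left end, and XUT1018 at the right, each with 66 reads, and with 1 and 3 calls. Of the 96 called ORFs near the ends, 57 had 5 to 9 valid codons (59.4%), with a median of 20 reads. Elsewhere 270 of 481 did (56.1%), with a median of 21 reads.

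The 2 ends with most called XUTs show how varied these transcripts are. At the right end of chromosome 9, 6 of the 7 called XUTs lie on the plus strand, toward the end, and XUT0965 on the minus strand. The innermost, XUT0962, has a 123-nt called ORF with 20 reads, 13 valid codons and a score of 0.428, which overlaps GON7, the gene of a subunit of the tRNA-modifying KEOPS complex in S. cerevisiae. XUT0966 overlaps NCAS0I03100 and lies beside CDC6, a gene of replication licensing. It has 3 overlapping called ORFs of 87, 45 and 87 nt with 26, 19 and 19 reads. The 87-nt ORF with 26 reads and the 45-nt ORF overlap NCAS0I03100. XUT0967, beside PHO90, which encodes a phosphate transporter in S. cerevisiae, has 4 called ORFs with 47 to 62 reads each. These called ORFs form 2 groups of overlapping ORFs, so shared reads can enter the sum of XUT0967 more than once. Of that sum, 21.9% lay on the most-read ORF, the lowest such share among XUTs near the ends with at least 100 reads. XUT0969 follows XUT0967 on the same strand with 28 reads and a first ORF of 120 nt that was called at a score of 0.375.

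At the left end of chromosome 8 the 6 called XUTs each had 1 called ORF, and all but XUT0842 and XUT0852 had under 40 reads. XUT0846 had 8 reads and a called ORF of 105 nt with 7 of them, on 5 valid codons. XUT0847 lists 25 ORFs and had 30 reads, with a called ORF of 198 nt that scored 0.378 on 15 reads. Calls of this kind rest on few footprints.

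A few well-covered XUTs had no call. Of the 20 with at least 100 reads, 3 were without one. XUT0005, which overlaps the RBA50 gene of chromosome 1, had 809 reads. Most were on ORFs of 78 and 54 nt with 460 and 331 reads, which overlap each other and lie outside the gene. These ORFs had 7 and 4 valid codons and scores of 0.285 and 0.259. XUT1019 on chromosome 10 had 116 of its 127 reads on a 48-nt ORF with 1 valid codon. The third is XUT0422, described above. XUT0963, beside the ribosomal protein gene RPL39, had a similar stack, with 306 of its 433 reads on a 30-nt ORF with 3 valid codons that was not called. It also had 2 called ORFs, of which the 36-nt one (561501 to 561536, chromosome 9) had 59 reads and a score of 0.961.

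ORFs near the ends that could be scored had phase scores close to those elsewhere. For each XUT the most-read ORF with at least 5 valid codons was taken, which exists for 43 of the 123 XUTs (35.0%, exact 95% interval 26.6 to 44.1%), for 29.9% of all XUTs and for 257 of the 879 others (29.2%, 26.2 to 32.4%). The median score was 0.543 near the ends (interval 0.512 to 0.649) and 0.532 elsewhere (0.497 to 0.557). Of these ORFs 40 of 43 were called (93.0%, exact 95% interval 80.9 to 98.5%), and 222 of 257 elsewhere (86.4%, 81.6 to 90.3%). Their read density had a median of 1.50 reads per codon near the ends (interval 0.52 to 4.92) and 0.769 elsewhere (0.676 to 1.07). The order was turned when the longest such ORF was taken instead of the most-read one, with 0.519 near the ends and 0.629 elsewhere. The densest of all, 449 reads per codon, was elsewhere, and the highest near the ends was 39.8.

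Scores can rest on few or many valid codons, so they were also compared at similar numbers. With 5 to 9 valid codons, the median score was 0.514 in 20 XUTs near the ends (interval 0.460 to 0.660) and 0.529 in 142 others (0.456 to 0.576). With 10 to 19 it was 0.641 in 17 XUTs near the ends (0.521 to 0.680) and 0.485 in 57 others (0.400 to 0.556). With 20 or more it was 0.567 in 6 XUTs near the ends and 0.556 in 58 others, with intervals of 0.352 to 0.714 and 0.534 to 0.581. The intervals overlap in all 3 classes, and the widest gap is in the middle one.

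**Figure D5:**
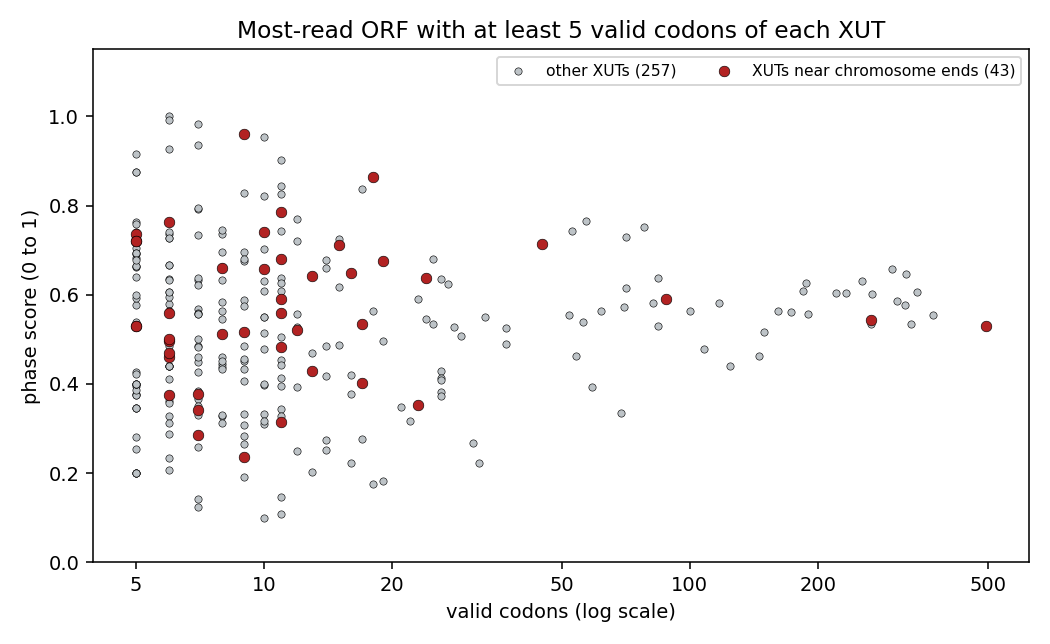
Phase score (vertical, 0 to 1) against valid codons (horizontal, log scale) of the most-read ORF with at least 5 valid codons of each XUT, for 43 XUTs near chromosome ends (red) and 257 others (grey). The red points lie within the spread of the grey ones except at the far right, where the ORF of XUT0915 has 497 valid codons.

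The share with a call near the ends was also counted by direction of transcription. Of the 56 XUTs transcribed toward the nearer end, 23 had a call (41.1%, exact 95% interval 28.1 to 55.0%) and the median was 9.5 reads (4 to 28). Of the 67 transcribed away from it, 17 had one (25.4%, 15.5 to 37.5%), with a median of 4 reads (2 to 10). In the rest of the chromosomes the shares were 26.7% of 449 and 25.8% of 430. By arm, 19 of 66 XUTs at left ends had a call (28.8%, 18.3 to 41.3%) and 21 of 57 at right ends (36.8%, 24.4 to 50.7%). These differences lie within overlapping intervals and were not tested.

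Overlap with an XUT of the opposite strand was listed for 20 of the 123 XUTs (16.3%, exact 95% interval 10.2 to 24.0%) and for 80 of the 879 others (9.10%, 7.28 to 11.2%). Of the 20, 7 had a call (35%, 15.4 to 59.2%), and of the 80 others 34 had one (42.5%, 31.5 to 54.1%). None of the 7 had a partner with a call except XUT0842 and XUT0843 on chromosome 8, which overlap each other. XUT0843 had 25 reads and a 354-nt called ORF with 12 reads.

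Whether values change at the limit of 50000 nt was not tested, and the 5 XUTs on each side are too few to show it. From 40001 to 50000 nt, 20% of 25 XUTs had a call, with a median of 2 reads. From 50001 to 100000 nt it was 28.8% of 111 XUTs, with a median of 6 reads. The 5 XUTs just inside it, from 47928 to 49698 nt, were XUT0251, XUT0852, XUT0527, XUT0834 and XUT0267, with 10, 170, 2, 2 and 1 reads and a call in XUT0852 alone. The 5 just outside, from 50336 to 51479 nt, were XUT0833, XUT0754, XUT0926, XUT0927 and XUT0977, with 23, 17, 6, 3 and 10 reads and a call in XUT0754 alone.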

How the data were processed

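The submitters' processing notes name Trim Galore, a read trimmer, and HISAT2, an aligner. Versions, genome build, read-length filter, handling of multiply mapping reads and the scoring program are not stated there. The deposited read count is a raw count per ORF, merged over libraries that are not named. The deposited read density is a signal (coverage) in reads per codon: it equalled read count over length in codons in all 8742 ORFs. The deposited phase score is a fraction from 0 to 1, and the deposited ratio of valid codons divides them by all codons of the ORF. ORFs were grouped by XUT, and shares and medians were computed in Python 3.11.15 with pandas 2.3.3, numpy 2.4.6 and scipy 1.17.1, with exact 95% intervals; the functions were tested on simulated data. No model or test was run, since there are no values per library. Genes were placed by coordinates from RefSeq's table of ASM23734v1, a build that the deposited table does not name. XUTs named in the text follow a rule: the 10 with most reads, the called XUT nearest each end, those with an ORF of 600 nt or more, the 5 with most calls, the 5 highest scores among called ORFs with at least 10 valid codons, and 5 on each side of the limit. XUT0422, XUT0603, XUT0843, XUT0846, XUT0847, XUT0851, XUT0914, XUT0962, XUT0966, XUT0967, XUT0969 and XUT1019 were added after their values were seen. The regions and lists were chosen with earlier results of these data known.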

Additional observations from a re-analysis of the deposited data

How the results depend on the processing

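No paired analysis was possible because no column of the table belongs to a library, and leaving out a replicate was not possible for the same reason. Chromosome lengths were not used here, so the planned measure from assembly ends was not run. Added after the data were seen were an outer limit of 10000 nt, ends moved out to the last listed gene, and leaving out XUTs that overlap a gene. The share of XUTs near the ends with a call, 32.5%, stayed within its interval in 16 of 19 alternatives and was 20.3% at a score of at least 0.6, 18.7% with at least 10 valid codons and 17.9% with at least 30 reads (14.4%, 11.7% and 13.3% elsewhere). It lay above the share elsewhere in all alternatives except without XUTs that overlap a gene (37.3% near the ends, 37.5% elsewhere). With the ends moved out to the last gene, 115 XUTs remained, 32.2% of them with a call. With 1 chromosome left out at a time it lay between 29.9% and 34.3%. The share with reads was 36.6% when 10 reads in an ORF were required, and lay below the share elsewhere in 3 of 17 alternatives. The median of 6 reads was 25 within 10000 nt, 3 for the most-read ORF alone and 21 among XUTs with reads. The read density of 1.50 reads per codon was 0.519 for the longest scorable ORF, below the 0.629 elsewhere. The median phase score stayed within its interval in all 18 alternatives, but its order against the others was not kept in 3. The longest ORF stayed within its interval in all 16. Reads were present on 392 of the 1329 ORFs near the ends (29.5%) and on 2323 of the 7413 others (31.3%), and an ORF without reads cannot be called.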
